A study of Mus musculus with 16 samples.

Results

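Ifit1, Ifit2, Ifit3, Ifit3b, Mx1, Mx2 and Rsad2 are antiviral effector genes that interferons switch on. The 7 genes were chosen by name, with earlier results of these data known, and were looked up by Ensembl ID in the deposited expression table. All 7 were among its 33289 genes, and all 7 passed the filter on low values that left 17349 genes for testing (0.5 RPKM or more, a log2 RPKM of at least -1, in at least 3 libraries). RPKM is the number of reads of a gene scaled to its length and to the reads mapped in the library, so levels can be compared between genes per unit of length. RNA came from hemi-brains of C57BL/6J mice aged 3 to 4 months that had been perfused with PBS 8 h after 1 injection. The study compared 4 groups of 4 libraries each, 16 in all: mice labelled Lcn2-/- given LPS, wild type mice given LPS, mice labelled Lcn2-/- given saline, and wild type mice given saline. LPS is lipopolysaccharide from the outer membrane of Gram-negative bacteria, and Lcn2 encodes lipocalin-2, which is secreted and captures the siderophores of bacteria. The series title poses the question of what lipocalin-2 does for the brain in inflammation. The labels do not say how the Lcn2-/- line was made, which part of the gene it lacks, or by which route and at what dose LPS was given.

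Interferons bind receptors that signal through JAK kinases, and the transcription factors they activate bind a DNA element called the interferon-stimulated response element (ISRE). LPS can start interferon production through TLR4 and the adaptors TRAM and TRIF, and it activates NF-kB at the same time. The IFIT proteins are built of tetratricopeptide repeats: IFIT1 binds viral RNA that lacks a host-type cap, IFIT2 and IFIT3 bind RNA or other IFIT proteins, and Ifit3b is a close mouse copy of Ifit3. The Mx proteins are dynamin-like GTPases that act against viruses in the nucleus (MX1 in mice) or the cytoplasm (MX2 in rodents). In C57BL/6 mice Mx1 is known to carry a deletion and Mx2 a frameshift, so their transcripts are read here as a response and not as protein. Rsad2 encodes viperin, a radical SAM enzyme that makes a chain-terminating nucleotide from CTP.

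Lcn2 itself, read first because it checks the genotype labels, still had transcript in libraries labelled Lcn2-/-. After LPS it was at 40.2, 34.1, 38.3 and 37.2 RPKM in libraries labelled Lcn2-/-, and at 71.5, 67.8, 66.7 and 82.7 RPKM in wild type libraries. After saline it was at 0.132, 0.204, 0.351 and 0.247 RPKM in libraries labelled Lcn2-/- and at 0.065, 0.0741, 0.204 and 0.137 RPKM in wild type libraries, groups that overlapped. In the LPS libraries, which did not overlap, the log2 difference, label minus wild type, came to -0.94 ± 0.31 (SE; limma adjusted p = 0.0505). This was short of the threshold of 0.05, and it passed on some other settings given in the closing section. The SE pools all 4 groups, and the SD of log2 RPKM was 0.59 (label) and 0.77 (wild type) after saline, against 0.098 and 0.14 after LPS. The interaction for Lcn2 was called, at -1.97 ± 0.44 (SE; limma adjusted p = 0.016). It also takes in the difference after saline, 1.03 ± 0.31 (SE; limma adjusted p = 0.37), between levels of 0.351 RPKM or less. Because Lcn2 transcript was still present, the genotype is written as a label throughout. By genes detected, 16372 to 16497 genes reached 0.5 RPKM in 15 libraries, and saline replicate 4 labelled Lcn2-/- stood apart with 17112. The title of that library, unlike those of the others, ends in a letter, and the labels do not say why. The 25th percentile of all genes lay between 0.0246 and 0.0418 RPKM in LPS libraries labelled Lcn2-/-, between 0.0181 and 0.0316 in wild type LPS libraries, between 0.0576 and 0.151 in saline libraries labelled Lcn2-/-, and between 0.0587 and 0.0635 in wild type saline libraries. The table gives no read counts, and the depth of each library is unknown. Replicate numbers are names only, and nothing in the labels says whether libraries of a group shared a cage, a day or a litter; the p-values speak of the spread among these libraries only, which may be technical.

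The 4 IFIT genes lie on the plus strand of chromosome 19 within 99.3 kb (GRCm38, GENCODE vM21): Ifit2 (ENSMUSG00000045932) at 34550694 to 34576419, Ifit3 (ENSMUSG00000074896) at 34583531 to 34588731, Ifit3b (ENSMUSG00000062488) at 34607970 to 34613401 and Ifit1 (ENSMUSG00000034459) at 34640871 to 34650009. Mx1 (ENSMUSG00000000386, minus strand) at 97447035 to 97462907 and Mx2 (ENSMUSG00000023341, plus strand) at 97535308 to 97560900 on chromosome 16 are 72.4 kb apart. GENCODE classes Mx1 as protein-coding and Mx2 as a polymorphic pseudogene, and RefSeq classes both as transcribed pseudogenes. Rsad2 (ENSMUSG00000020641, minus strand) is on chromosome 12 at 26442746 to 26456452, and 12.8 kb separate it from Cmpk2, which encodes a mitochondrial nucleotide kinase. The transcripts of Ifit3 and Ifit3b were 98.0% identical over 1697 aligned bases. Of all 50-base stretches, 51.2% of those in Ifit3 and 44.5% of those in Ifit3b occur in both. The sources used here do not say how reads were divided between these genes, so the split between Ifit3 and Ifit3b is uncertain. Mx1 and Mx2 shared 4.77% and 6.71% of their 50-base stretches, and 7.06% of those of Ifit1 occur in its neighbour Ifit1bl2.

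Promoter sequence is shown because the genes moved together and the ISRE is the element that interferon signalling is known to use. RefSeq windows of 300 bases (250 before and 50 after the annotated start, GRCm38.p6, written 5′ to 3′ on the strand of the gene) were used for 5 of the 7 genes, and none was used here for Mx1 and Mx2. Capitals mark matches to the ISRE core on either strand, which is GAAA, any 2 bases, then GAAA, and reads TTTC, any 2 bases, then TTTC where the match is on the opposite strand. The windows are Ifit1 at chr19:34640639-34640938 (plus strand), Ifit3 at chr19:34583279-34583578 (plus strand), Ifit3b at chr19:34607707-34608006 (plus strand), Rsad2 at chr12:26456403-26456702 (minus strand), and the upstream start of Ifit2 at chr19:34550444-34550743 (plus strand), which had no ISRE match.
Ifit1: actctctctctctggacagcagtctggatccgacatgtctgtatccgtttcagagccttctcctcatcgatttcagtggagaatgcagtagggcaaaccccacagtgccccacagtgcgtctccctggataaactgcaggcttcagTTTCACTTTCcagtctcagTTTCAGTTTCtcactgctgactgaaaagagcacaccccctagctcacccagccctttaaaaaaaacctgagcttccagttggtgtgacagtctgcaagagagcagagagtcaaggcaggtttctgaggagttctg
Ifit3: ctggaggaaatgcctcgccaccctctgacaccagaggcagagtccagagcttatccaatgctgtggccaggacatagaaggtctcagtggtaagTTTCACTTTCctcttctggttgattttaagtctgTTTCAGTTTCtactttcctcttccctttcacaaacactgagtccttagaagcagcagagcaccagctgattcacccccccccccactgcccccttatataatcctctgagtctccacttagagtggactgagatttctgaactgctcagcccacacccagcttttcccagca
Ifit3b: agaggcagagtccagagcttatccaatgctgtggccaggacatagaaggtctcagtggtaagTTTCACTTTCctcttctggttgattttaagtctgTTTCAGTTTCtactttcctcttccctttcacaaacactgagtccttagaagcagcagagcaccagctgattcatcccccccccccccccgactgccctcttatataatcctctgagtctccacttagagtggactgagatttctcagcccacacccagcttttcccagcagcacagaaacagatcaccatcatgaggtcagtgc
Rsad2: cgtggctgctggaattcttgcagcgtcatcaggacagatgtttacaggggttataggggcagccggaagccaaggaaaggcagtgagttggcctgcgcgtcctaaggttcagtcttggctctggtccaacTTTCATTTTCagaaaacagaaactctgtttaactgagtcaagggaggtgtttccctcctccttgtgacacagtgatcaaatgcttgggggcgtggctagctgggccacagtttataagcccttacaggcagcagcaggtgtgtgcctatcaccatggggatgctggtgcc
Ifit2: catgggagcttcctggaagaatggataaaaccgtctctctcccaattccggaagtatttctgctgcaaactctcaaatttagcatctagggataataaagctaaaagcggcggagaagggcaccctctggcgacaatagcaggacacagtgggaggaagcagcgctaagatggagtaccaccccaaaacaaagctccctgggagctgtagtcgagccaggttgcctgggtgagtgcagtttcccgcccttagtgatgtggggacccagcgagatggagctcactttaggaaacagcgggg

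The windows of Ifit1, Ifit3 and Ifit3b each held 2 matches and that of Rsad2 held 1. Seen from the start site, they covered bases -104 to -95 and -85 to -76 in Ifit1, -156 to -147 and -122 to -113 in Ifit3, -188 to -179 and -154 to -145 in Ifit3b, and -120 to -111 in Rsad2. Of 32851 promoter windows of the same length, 3.44% held at least 1 such match and 0.225% held at least 2. A match to the GAS element TTCNNNGAA, searched on both strands and present in 8.30% of all windows, was found in 1 member window, that of the upstream Ifit2 start at -241 to -233. The second Ifit2 start had neither. The Ifit3 and Ifit3b windows were 99.2% identical over 260 aligned bases, so their matches are not independent. The start of Ifit1bl2 lies 146 bases from that of Ifit1 on the other strand, and its window held the same 2 ISRE matches. These are matches of letters and do not show that a factor binds there.

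**Figure D1:**
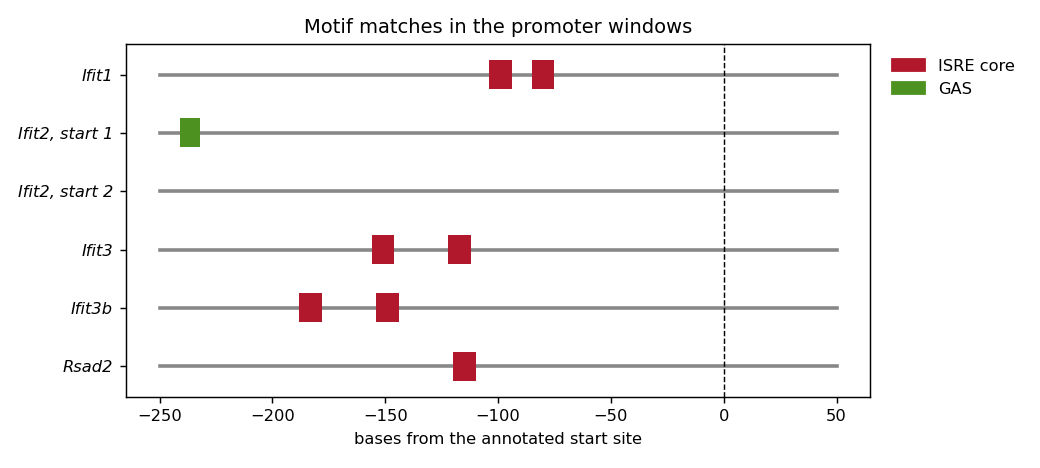
Positions of motif matches in the 6 promoter windows of the 5 genes that have one, with bases from the annotated start site on the x axis (the dashed line is the start). Red blocks are ISRE core matches and the green block is a GAS match; Ifit1, Ifit3 and Ifit3b have 2 red blocks each, Rsad2 has 1, and the Ifit2 windows have 0.

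Among the IFIT genes, every LPS library was above every saline library, and every LPS library labelled Lcn2-/- was above every wild type LPS library. Ifit1 stood at 31.4, 32.6, 35.7 and 29.6 RPKM after LPS in brains labelled Lcn2-/-, and at 11.9, 11.5, 7.56 and 15.6 RPKM after LPS in wild type brains. After saline its levels were 1.53, 2.53, 2.65 and 2.02 RPKM with the Lcn2-/- label and 2.40, 1.62, 2.18 and 2.43 RPKM in wild type. The saline groups of Ifit1 overlapped, and the lowest wild type LPS library was replicate 3.

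For Ifit3, LPS libraries labelled Lcn2-/- held 53.4, 52.5, 58.4 and 54.9 RPKM, against 21.2, 19.97, 16.5 and 31.1 RPKM in wild type LPS libraries. Saline libraries held 3.25, 4.08, 3.89 and 4.90 RPKM with the Lcn2-/- label and 4.19, 3.53, 3.48 and 4.54 RPKM in wild type. The saline groups overlapped and the LPS groups did not, and wild type replicate 4 was the high one of its group. Ifit3b, its copy, was at 22.2, 19.5, 21.9 and 21.3 RPKM in LPS brains labelled Lcn2-/- and at 8.48, 7.05, 7.73 and 12.8 RPKM in wild type LPS brains. With saline it was at 2.13, 2.12, 2.20 and 2.11 RPKM under the Lcn2-/- label and at 2.82, 2.20, 2.17 and 2.15 RPKM in wild type. Ifit3b thus showed the pattern of Ifit3 at a lower level, with wild type saline replicate 1 above the other 7 saline libraries.

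Ifit2, which had the smallest LPS effect of the 7 in wild type brains on the log2 RPKM scale (on log2(RPKM + 0.5) it was Mx2), was at 15.6, 21.7, 20.02 and 15.6 RPKM after LPS with the Lcn2-/- label and at 6.95, 6.96, 5.18 and 9.38 RPKM after LPS in wild type. Its saline levels were 2.36, 2.33, 2.20 and 2.06 RPKM with the Lcn2-/- label and 2.69, 2.66, 2.22 and 2.42 RPKM in wild type. Replicates 2 and 3 of the LPS group labelled Lcn2-/- were the higher pair, and the LPS groups did not overlap.

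The Mx genes and Rsad2 were near the floor of the data after saline and spanned a wider range after LPS. Rsad2 reached 15.9, 33.4, 29.2 and 14.9 RPKM in LPS brains labelled Lcn2-/-, and 3.45, 3.46, 2.15 and 4.66 RPKM in wild type LPS brains. With saline it was at 0.252, 0.262, 0.240 and 0.381 RPKM under the Lcn2-/- label and at 0.290, 0.236, 0.237 and 0.341 RPKM in wild type. As for Ifit2, replicates 2 and 3 of the LPS group labelled Lcn2-/- were higher than replicates 1 and 4, and even the lower pair was above every wild type LPS library.

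Mx1 was at 4.63, 7.31, 6.77 and 4.45 RPKM after LPS in brains labelled Lcn2-/- and at 1.09, 1.06, 0.633 and 1.72 RPKM after LPS in wild type brains. After saline it was at 0.0723, 0.119, 0.0664 and 0.205 RPKM with the Lcn2-/- label and at 0.124, 0.0691, 0.0741 and 0.121 RPKM in wild type. Those saline levels are close to the 25th percentile of all genes, so a fold change against them depends on the scale used for low values. Mx2 was at 3.74, 5.64, 5.62 and 3.70 RPKM in LPS brains labelled Lcn2-/- and at 0.887, 0.857, 0.801 and 1.26 RPKM in wild type LPS brains. With saline it was at 0.182, 0.248, 0.214 and 0.273 RPKM under the Lcn2-/- label and at 0.283, 0.286, 0.200 and 0.280 RPKM in wild type. LPS brains labelled Lcn2-/- thus held both Mx transcripts at 3.70 RPKM or more, and wild type LPS brains held both at 1.72 RPKM or less.

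**Figure D2:**
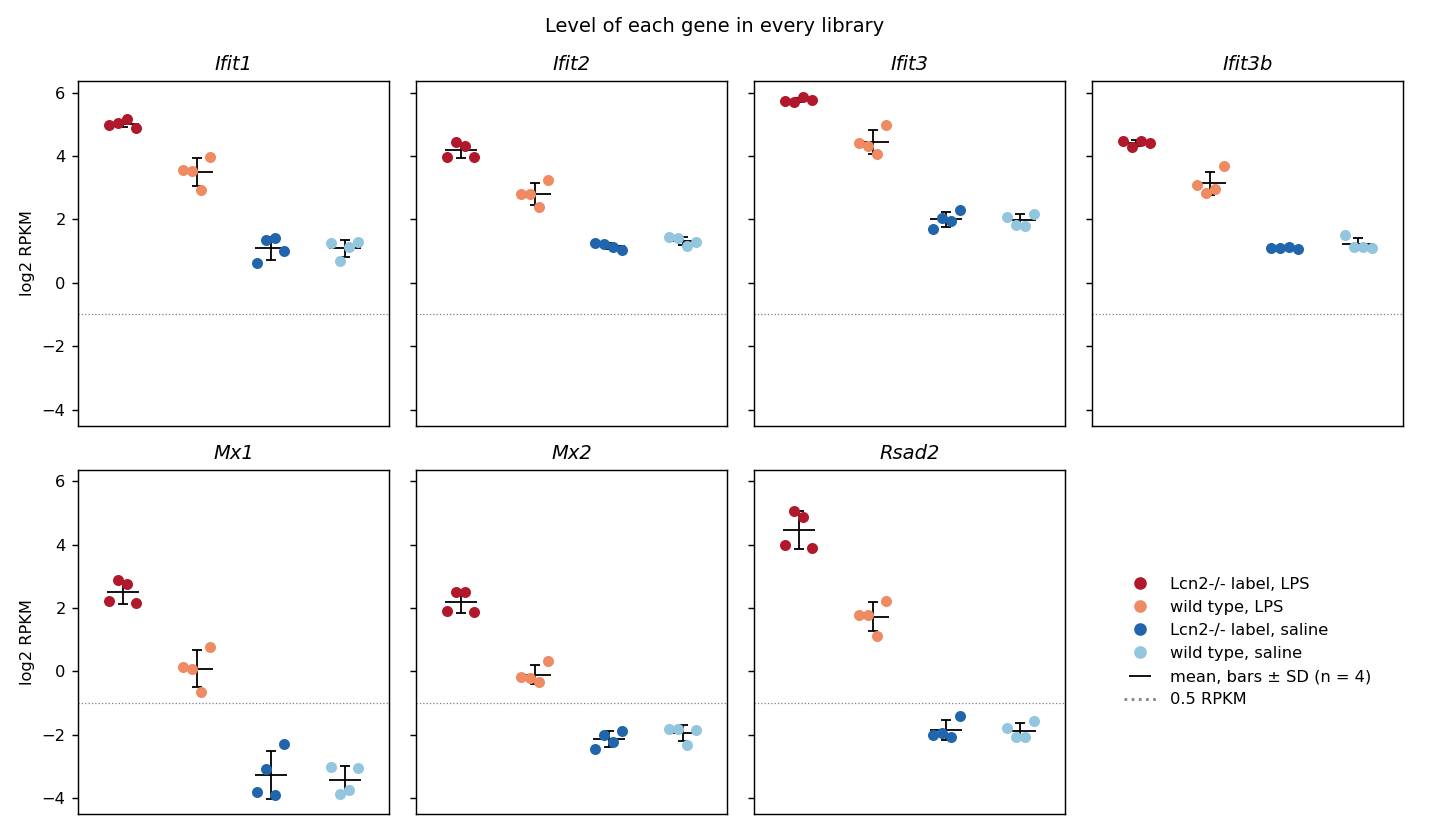
Log2 RPKM (y axis) of each gene in the 16 libraries, 1 point per library, grouped by genotype label and injection, with the group mean and SD (n = 4) as black bars and 0.5 RPKM as a dotted line. In all 7 panels the LPS points labelled Lcn2-/- lie above the wild type LPS points, which lie above both saline groups, and the saline groups overlap.

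The order of the levels changed with the group. In LPS brains labelled Lcn2-/-, Ifit3 led with a geometric mean of 54.7 RPKM, followed by Ifit1 (32.3), Rsad2 (21.9), Ifit3b (21.2), Ifit2 (18.03), Mx1 (5.65) and Mx2 (4.58). Neighbours from Ifit1 to Ifit2 in that order had overlapping ranges, as had Mx1 and Mx2, while Ifit3 stood above Ifit1 and Ifit2 above Mx1 with no overlap. In wild type LPS brains Rsad2 was at 3.31 RPKM, below Ifit2 at 6.97 RPKM and above Mx1 at 1.06 RPKM without overlap on either side. After saline the IFIT genes lay between 2.13 and 3.99 RPKM in both genotype groups, with Ifit3 above the other 3 and no overlap with its neighbour, and Rsad2, Mx2 and Mx1 were all below 0.5 RPKM in every library.

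All 7 genes rose after LPS in brains labelled Lcn2-/-, and all 7 rose in wild type brains, with no overlap between LPS and saline libraries for any of them. Rsad2, Mx1 and Mx2 were below 0.5 RPKM in every saline library and passed the filter only through LPS libraries, so their rise was largely set by the filter; the 4 IFIT genes passed in every group. Over all tested genes, 20.7% were called higher and 27.7% lower after LPS with the Lcn2-/- label, and 11.4% higher and 13.9% lower in wild type (limma, Benjamini-Hochberg adjusted p under 0.05). Groups of libraries did not overlap, with LPS higher, for 18.6% of them with the label and 13.8% in wild type. Bulk RNA from a hemi-brain cannot tell more RNA per cell from more cells that express a gene. In brains labelled Lcn2-/- the folds ran from 8.07 for Ifit2 to 78.6 for Rsad2. The log2 differences there were 6.30 ± 0.27 for Rsad2, 5.76 ± 0.36 for Mx1, 4.34 ± 0.20 for Mx2, 3.92 ± 0.20 for Ifit1, 3.78 ± 0.16 for Ifit3, 3.31 ± 0.14 for Ifit3b and 3.01 ± 0.14 for Ifit2 (SE, n = 4 against 4, highest limma adjusted p = 4.1e-09). In wild type brains the folds ran from 2.80 for Ifit2 to 12.1 for Rsad2, with log2 differences of 3.601 ± 0.27 for Rsad2, 3.50 ± 0.36 for Mx1, 2.47 ± 0.16 for Ifit3, 2.40 ± 0.20 for Ifit1, 1.92 ± 0.14 for Ifit3b, 1.85 ± 0.20 for Mx2 and 1.48 ± 0.14 for Ifit2 (SE, highest limma adjusted p = 2.7e-06).

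For the genes that are low after saline the fold changes with the treatment of low values. With 0.5 RPKM added before the logarithm, the LPS difference with the Lcn2-/- label was 4.84 for Rsad2, 3.33 for Mx1 and 2.80 for Mx2, and in wild type it was 2.30 for Rsad2, 1.41 for Mx1 and 0.92 for Mx2. All 6 were still past the threshold, but the filter had largely set the rise of these genes, so this is not separate support for it. On that scale the IFIT differences were 2.76 to 3.63 with the Lcn2-/- label and 1.32 to 2.32 in wild type, where Ifit3 then had the largest value and Mx2 the smallest. Without saline replicate 4 labelled Lcn2-/-, the library that stood apart, the LPS differences with that label were 6.45 for Rsad2, 6.09 for Mx1, 4.43 for Mx2 and 2.97 to 3.89 for the IFIT genes.

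After saline the genotype groups could not be separated in any of the 7 genes. The differences, label minus wild type, ran from -0.19 for Mx2 to 0.15 for Mx1 on the log2 scale, with limma adjusted p between 0.668 and 0.9987. In this comparison 0.0461% of all tested genes (8) were called in either direction, and 1897 had an unadjusted p under 0.05. The 95% intervals still allowed differences of -0.43 to 0.43 for Ifit1, -0.47 to 0.15 for Ifit2, -0.30 to 0.36 for Ifit3, -0.41 to 0.18 for Ifit3b, -0.62 to 0.92 for Mx1, -0.61 to 0.22 for Mx2 and -0.54 to 0.61 for Rsad2. The interval is widest for Mx1, whose saline libraries spread most.

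After LPS all 7 genes were higher in brains labelled Lcn2-/- than in wild type brains, and no library of either group overlapped with the other for any of them. In this comparison 7.04% of all tested genes were called higher and 8.74% lower. Groups did not overlap, with the label higher, for 13.3% of all tested genes. Rsad2 was 6.62 times its wild type level (95% interval 4.45 to 9.86), Mx1 5.32 times (3.12 to 9.09) and Mx2 4.89 times (3.67 to 6.53). The IFIT genes were 2.86 (Ifit1), 2.59 (Ifit2), 2.53 (Ifit3) and 2.42 times (Ifit3b) their wild type levels, with intervals that together ran from 1.98 to 3.84. The limma adjusted p was at most 0.00058. Ordered by this difference among 17349 genes, Rsad2 was at place 4, Mx1 at 10, Mx2 at 13, Ifit1 at 50, Ifit2 at 70, Ifit3 at 75 and Ifit3b at 83. The median of the 7 log2 differences was 1.52, beside -0.0098 over all genes tested.

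**Figure D3:**
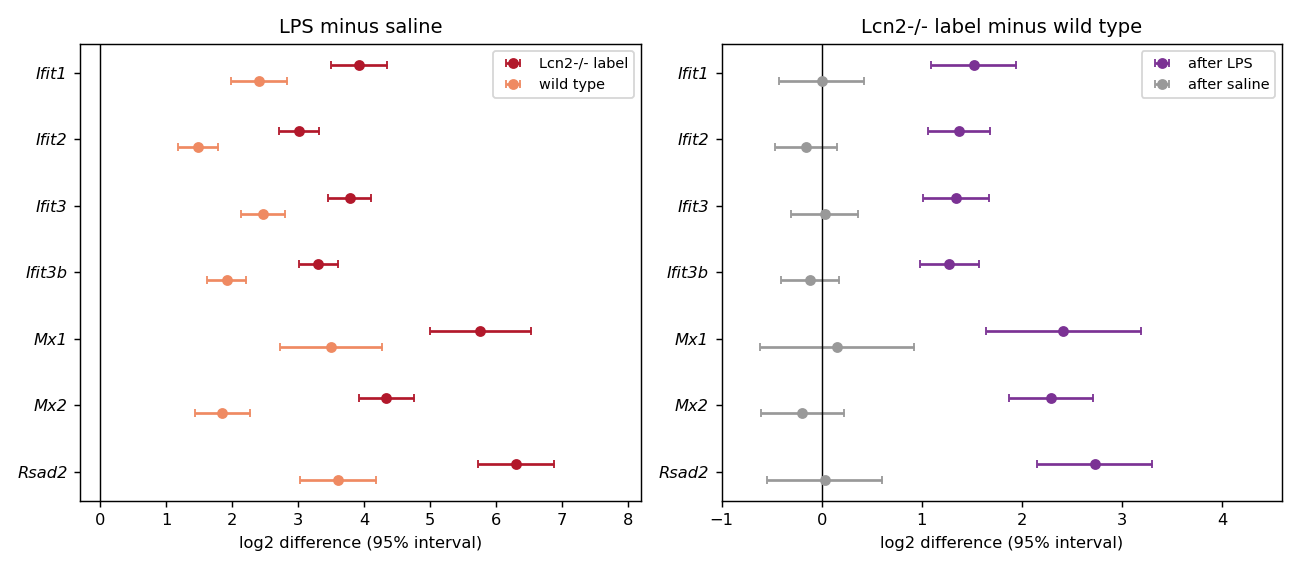
Log2 differences (x axis) of each gene with their 95% intervals from limma: LPS minus saline within each genotype label on the left, and Lcn2-/- label minus wild type after each injection on the right. All 14 intervals on the left and the 7 purple ones (after LPS) lie above 0, and the 7 grey ones (after saline) cross 0.

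The LPS effect itself differed with the label for all 7 genes. Over all tested genes this interaction was called in the higher direction for 3.9% and in the lower for 4.92%. It was 2.70 ± 0.38 for Rsad2 (SE; limma adjusted p = 0.0015), 2.48 ± 0.28 for Mx2 (0.00023) and 2.26 ± 0.51 for Mx1 (0.018). Among the IFIT genes it was 1.53 ± 0.20 for Ifit2 (0.0010), 1.52 ± 0.28 for Ifit1 (0.0066), 1.39 ± 0.19 for Ifit3b (0.0013) and 1.31 ± 0.22 for Ifit3 (0.0035). Mx2 is the gene for which the wild type response was the smallest part of the labelled response: 1.85 is 42.7% of 4.34 on the log2 scale. For the other 6 genes that share was 49.2% (Ifit2) to 65.2% (Ifit3). On log2(RPKM + 0.5) the interaction was 2.54 for Rsad2, 1.92 for Mx1, 1.88 for Mx2 and 1.30 to 1.47 for the IFIT genes, all called. Saline replicate 4 labelled Lcn2-/- weighs on this contrast, and without it the values were 2.85 for Rsad2, 2.59 for Mx1, 2.57 for Mx2, 1.49 for Ifit1, 1.49 for Ifit2, 1.41 for Ifit3 and 1.38 for Ifit3b.

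**Figure D4:**
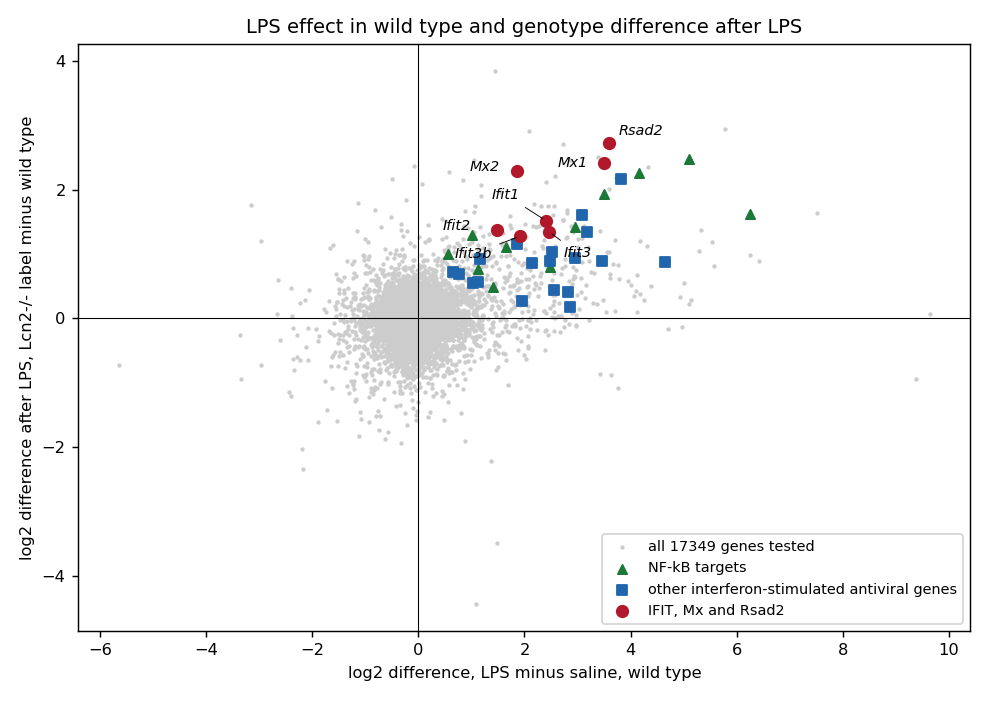
Each of the 17349 tested genes by its LPS effect in wild type (x axis, log2 difference) and its difference after LPS between the Lcn2-/- label and wild type (y axis, log2 difference). The 7 genes (red circles) sit at 1.48 or more on the x axis and 1.27 or more on the y axis, with Rsad2, Mx1 and Mx2 above the IFIT genes; wild type LPS libraries enter both axes, so the axes are not independent.

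Whether the 7 genes kept the same proportions in the LPS groups was looked at as the log2 ratio of 2 genes within a library, for all 21 pairs, after the values had been seen. No pair passed after adjustment. The ratio of Rsad2 to Ifit3 was -1.32 ± 0.59 in LPS brains labelled Lcn2-/- and -2.71 ± 0.18 in wild type LPS brains (SD, n = 4 each, exact permutation p = 0.0286), a difference of 1.39. All 12 pairs of an Mx gene or Rsad2 with an IFIT gene were higher with the Lcn2-/- label, by 0.77 to 1.45, with no overlap between the groups. For these 12 the two-sided exact permutation p was 0.0286, the smallest that 4 against 4 libraries allow, and 0.05 after Benjamini-Hochberg adjustment over the 21 pairs, which is at the threshold and not under it. Each difference equals the label difference after LPS of 1 gene minus that of the other. The pairs share the 7 genes and restate the folds given above, so they are not separate support. How often pairs of other genes do not overlap was not measured. The 6 pairs within the IFIT genes and the 3 within Mx1, Mx2 and Rsad2 all overlapped between the groups, with differences of -0.44 to 0.24 and adjusted exact p of 0.0857 or more. The split between these sets of pairs depended on the scale. On log2(RPKM + 0.5) the 12 differences were 0.35 to 1.33, and 10 of the 12 pairs did not overlap (adjusted exact p 0.05 to 0.129), Mx2 with Ifit1 and Mx2 with Ifit3 being the 2 that did. On that scale Mx1 to Rsad2 (-0.59) and Mx2 to Rsad2 (-0.73) also did not overlap (adjusted exact p = 0.05 each), and the other 7 pairs overlapped.

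Wild type LPS libraries tended to be high or low for the 7 genes together. Wild type LPS replicate 4 was the highest of its group for 7 of the 7 genes, by 0.43 to 0.70 on the log2 scale above the group mean, and replicate 3 was the lowest for 6, Ifit3b being the exception. The same libraries were highest and lowest for 17 of the 19 other tested interferon-stimulated antiviral genes, described below. No such agreement was seen in LPS brains labelled Lcn2-/-, where 9 of those 19 were highest in replicate 1 and 8 were lowest in replicate 2. Among 11 tested NF-kB targets, wild type LPS replicate 4 was the highest for 5 and replicate 3 the lowest for 2. With the Lcn2-/- label, LPS replicate 3 was the highest for 8 of the 11. How often these libraries were highest or lowest over all genes was not measured. In LPS brains labelled Lcn2-/- the 7 genes divided: Rsad2, Mx1, Mx2 and Ifit2 were highest in replicate 2, Ifit1 and Ifit3 in replicate 3, and Ifit3b in replicate 1. The spread there was 0.60 for Rsad2, 0.37 for Mx1, 0.34 for Mx2 and 0.24 for Ifit2 (SD of log2 RPKM), against 0.11 for Ifit1, 0.086 for Ifit3b and 0.068 for Ifit3. In wild type LPS brains it was 0.29 for Mx2, 0.35 to 0.43 for the IFIT genes, 0.46 for Rsad2 and 0.59 for Mx1. Leaving out any of the 16 libraries kept all 7 genes called after LPS, where the difference then ran from 2.52 to 2.91 for Rsad2 and from 1.17 to 1.46 for Ifit3b.

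**Figure D5:**
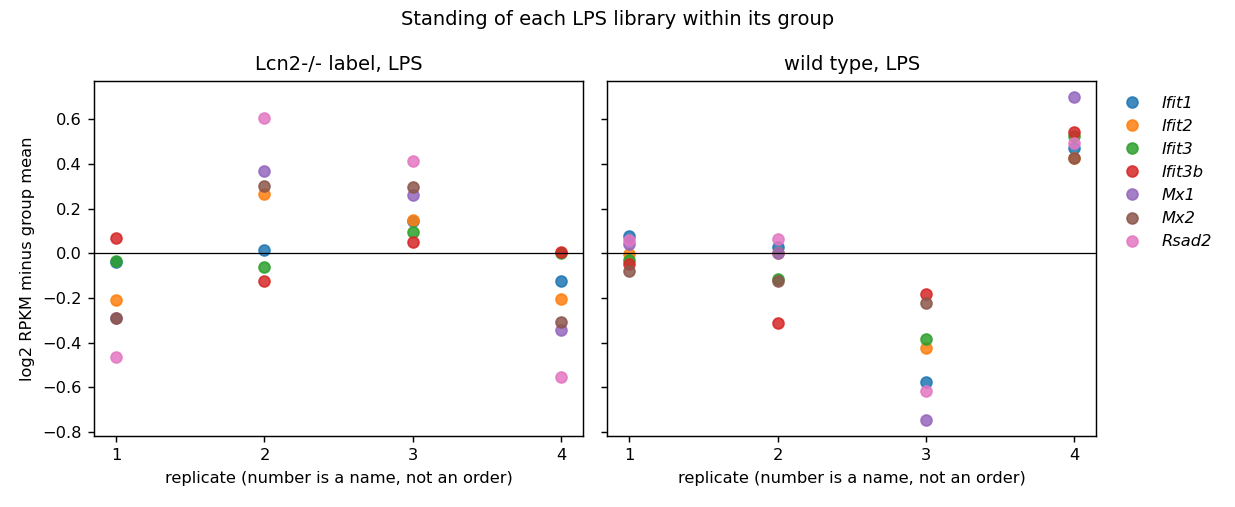
Deviation of each LPS library from its group mean (y axis, log2 RPKM) for the 7 genes, with the replicate name on the x axis. In wild type, replicate 4 is above the mean for all 7 genes and replicate 3 below it for all 7; with the Lcn2-/- label, Rsad2 (pink) spreads most and the IFIT genes other than Ifit2 (orange) stay within 0.15 of the mean.

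Relatives and neighbours of the 7 genes moved less or could not be read. Cmpk2, next to Rsad2, was at 16.5, 21.2, 20.9 and 16.7 RPKM in LPS brains labelled Lcn2-/- and at 10.02, 9.84, 9.78 and 11.5 RPKM in wild type LPS brains. After saline it was at 6.54, 7.09, 7.17 and 9.05 RPKM with the Lcn2-/- label and at 7.55, 7.30, 6.93 and 7.34 RPKM in wild type. It rose after LPS by 1.34 ± 0.10 with the label and by 0.49 ± 0.10 in wild type (limma adjusted p = 2.7e-08 with the label and 0.0014 in wild type), with an interaction of 0.84 ± 0.14 (0.0033), and so had far more transcript than Rsad2 at rest and a smaller change. Ifit1bl1, an IFIT1-like gene between Ifit3 and Ifit3b on the opposite strand, was at 1.18 to 1.35 RPKM in LPS brains labelled Lcn2-/- and at 0.921 to 1.04 RPKM in saline brains with that label, a rise of 0.42 ± 0.11 (adjusted p = 0.0067). In wild type its LPS difference was 0.099 ± 0.11 (0.60), and the interaction of 0.32 ± 0.16 did not pass (0.20). Ifit1bl2, which shares its start region with Ifit1, stayed below the filter at 0.324 to 0.418 RPKM in LPS brains labelled Lcn2-/-, 0.170 to 0.222 in wild type LPS brains, and 0.151 to 0.255 in saline brains, and was not tested. The sources used here do not say how reads in the stretches it shares with Ifit1 were assigned. The 3 conventional dynamins, the wider family of the Mx GTPases, showed interaction values of 0.0033 (Dnm1), -0.11 (Dnm2) and 0.23 (Dnm3), none of which passed.

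The interferons that induce these genes were low. Except for Ifng in LPS brains labelled Lcn2-/-, they were read at the floor of the data. Of 8 ligands listed, 6 were in the table and 0 passed the filter. Ifnb1, the first type I interferon made after LPS, was at 0.0089 to 0.0222 RPKM in LPS brains labelled Lcn2-/-, 0.0053 to 0.0106 in wild type LPS brains, 0.0373 to 0.102 in saline brains with the Lcn2-/- label and 0.0404 to 0.0418 in wild type saline brains. Ifna2, Ifna5, Ifnl2 and Ifnl3 were likewise at 0.142 RPKM or less in every library. These values lie at the lower end of the distribution, which itself lay lower in the LPS libraries, so no direction is read from them. Ifng, the type II interferon made by lymphocytes, was at 0.191, 0.106, 0.154 and 0.203 RPKM in LPS brains labelled Lcn2-/- and at 0.0080, 0.0071, 0.0119 and 0.0048 RPKM in wild type LPS brains. With saline it was at 0.0338 to 0.0850 RPKM under the Lcn2-/- label and at 0.0373 to 0.0628 RPKM in wild type. The LPS groups of Ifng did not overlap, and the labelled one lay above the 25th percentile of its libraries (0.0246 to 0.0418 RPKM). At this level Ifng was below the filter and not tested, and the depth of the libraries is unknown.

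Of 8 sensors and adaptors upstream of interferon that could be tested, out of 11 listed, 4 were higher and 1 lower with the Lcn2-/- label after LPS (7.04% and 8.74% of all tested genes), and 4 were higher in the interaction (3.9% of all). The largest interaction values were those of Ifih1 (1.10 ± 0.17) and Ddx58 (1.10 ± 0.17), the RNA sensors MDA5 and RIG-I (limma adjusted p = 0.0026 each). The other 2 of the 4, named after their values were seen, were Dhx58 (1.05) and Tlr3 (0.88). The adaptor gene Mavs was lower with the label after LPS (-0.46). Tlr4, Ticam2 and Cgas did not pass the filter. Among 10 genes of the interferon receptor, JAK-STAT and IRF step, 6 rose and 2 fell after LPS in each genotype group, beside 20.7% and 27.7% of all genes with the Lcn2-/- label and 11.4% and 13.9% in wild type. Of these 10 genes 4 were higher with the label after LPS and 2 had a called interaction: Irf1, a transcription factor also driven by interferon gamma and NF-kB, at 1.56 ± 0.17 (0.00023), and Stat2 at 0.35 ± 0.10 (0.046). The receptor genes Ifnar1 and Ifnar2 differed by 0.054 and -0.0022 on the log2 scale between the labels after LPS and did not pass.

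Of 6 brakes on interferon signalling, Usp18, a protease that removes ISG15 and blocks the receptor, had an interaction of 1.14 ± 0.28 (0.024). Socs3, an inhibitor of JAK signalling, had 1.03 ± 0.16 (0.0023). Pias1, a SUMO ligase named after its value was seen, was lower at -0.39 ± 0.10 (0.033), and the other 3 did not pass, beside 3.9% of all genes called higher and 4.92% lower.

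Other interferon-stimulated antiviral genes rose with the 7. Of 20 listed 19 were tested, and 7 of these (Ifi204, Ifi44, Isg20, Oas1a, Oas2, Oasl1 and Zbp1) were below 0.5 RPKM in every saline library and passed the filter only through LPS libraries. The other 12 all rose after LPS in each genotype group. After LPS, 15 of the 19 were higher with the label (median 0.87) and none lower, beside 7.04% of all genes, and 12 had a called interaction (median 0.74), beside 3.9%. Of the 12 that did not pass through LPS libraries alone, 9 were higher with the label after LPS and 8 had a called interaction. The largest interaction values were those of Oasl1 (2.14 ± 0.38, adjusted p = 0.0051), an OAS-like inhibitor of Irf7 translation, and Isg20 (1.84 ± 0.53, 0.044), an RNA exonuclease. The 4 not higher with the label after LPS were Oas2 (0.40), Oasl2 (0.44), Bst2 (0.26) and Ifitm3 (0.18). The medians of the 7 genes were 1.52 for the label after LPS and 1.53 for the interaction.

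The pattern was not limited to interferon-stimulated genes. Of 11 tested NF-kB targets, of 12 listed, 6 (Birc3, Ccl2, Cxcl1, Cxcl2, Il1b and Il6) were below 0.5 RPKM in every saline library and passed the filter only through LPS libraries. The other 5 all rose after LPS in each genotype group. Of the 11, 10 were higher with the Lcn2-/- label after LPS (median 1.30) and 7 had a called interaction (median 1.05), beside 7.04% and 3.9% of all genes. Among the 5 these counts were 5 and 4. Il6 was at 0.396 to 0.590 RPKM in wild type LPS libraries and at 1.42 to 2.49 RPKM in those labelled Lcn2-/-. It passed the filter because of the labelled group, so its call between the labels was favoured by the filter. Ccl2, a chemokine for monocytes, had an interaction of 2.68 ± 0.30 (limma adjusted p = 0.00023), and Cxcl2, a chemokine for neutrophils, of 2.55 ± 0.48 (0.0071), both about as large as that of Rsad2. Il1b (0.79) was the gene of this list that did not pass after LPS. After saline 0 of the tested genes in any of these lists were called between the labels. The saline groups did not overlap for Il6 (1.014 ± 0.26, limma adjusted p = 0.28) and Xaf1 (-0.25 ± 0.11, limma adjusted p = 0.44). Over all tested genes, saline groups did not overlap for 2.84% with the label higher and 2.35% with it lower. Nothing is therefore read from Il6 and Xaf1 here.

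The genes whose profile over the 16 libraries was most like the mean profile of the 7, each centred on its own mean, were Gm4841, Cd274, Ifi204, Icam1 and Irgm1, at a root mean square log2 difference of 0.26, 0.27, 0.29, 0.30 and 0.31. Cd274 encodes PD-L1, Icam1 an endothelial and leukocyte adhesion molecule, Ifi204 a DNA-binding interferon-induced protein and Irgm1 an immunity-related GTPase. Gm4841 had a mean log2 RPKM of 0.77 in LPS libraries labelled Lcn2-/-, -1.35 in wild type LPS libraries, and -3.86 (label) and -3.76 (wild type) after saline. It thus passed the filter mainly through the labelled LPS group, and Ifi204 passed only through LPS libraries. Their likeness to this profile was partly set by the filter. The 7 genes themselves were at 0.25 (Ifit3), 0.25 (Ifit1), 0.26 (Mx2), 0.49 (Ifit3b), 0.62 (Ifit2), 0.71 (Mx1) and 0.86 (Rsad2), so that Ifit2 and Ifit3b moved less and Mx1 and Rsad2 more than the mean.

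Markers of cell types that a hemi-brain holds were present: all 8 listed markers of each of neurons, astrocytes, oligodendrocytes, microglia and endothelium passed the filter. The shares of all genes called, given above for each comparison, are the background for the counts that follow. Among microglial markers after LPS, 7 of 8 were lower and 1 higher with the Lcn2-/- label, and 6 were lower and 1 higher in wild type. Their summed level was 89.6 to 99.8 RPKM in LPS libraries labelled Lcn2-/-, 88.1 to 99.7 in wild type LPS libraries, 104 to 108 in saline libraries labelled Lcn2-/- and 105 to 110 in wild type saline libraries. After LPS 2 of the 8 were lower with the label. Endothelial markers were lower for 6 of 8 and higher for 1 after LPS with the label and lower for 5 and higher for 1 in wild type, and after LPS 2 were lower and 1 was higher with the label. Their sums were 44.9 to 55.3, 46.8 to 52.6, 60.0 to 72.4 and 74.4 to 82.5 RPKM in the same order of groups. The saline sums of the endothelial markers were thus lower with the label and did not overlap, though 0 of the 8 were called there. Astrocyte markers were higher for 4 of 8 after LPS with each label, with sums of 606 to 633, 593 to 623, 493 to 516 and 508 to 523 RPKM. After LPS 1 of the 8 was lower with the label.

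Blood cell markers were low. Of 10 neutrophil markers 5 were tested, 3 of them higher after LPS in each genotype group and 0 called between the labels, with sums of 11.3 to 28.5 RPKM in LPS libraries labelled Lcn2-/-, 11.2 to 17.7 in wild type LPS libraries, 5.22 to 7.61 in saline libraries labelled Lcn2-/- and 3.21 to 9.502 in wild type saline libraries. Mpo, Elane, Ly6g, Mmp8 and Cxcr2 did not pass the filter. Monocyte markers (5 of 8 tested) summed to 8.91 to 10.1, 9.19 to 10.4, 7.47 to 8.54 and 7.47 to 8.48 RPKM in that order, with 1 higher and 1 lower with the label after LPS. Against saline, LPS raised 3 of the 5 in wild type and 1 with the label. Of 9 lymphocyte markers 1 passed the filter, Cd4, which was higher after LPS in wild type (0.31, adjusted p = 0.018) and lower in the interaction (-0.43, adjusted p = 0.045). Erythroid markers (4 of 7 tested) summed to 5.66 to 8.72 RPKM in LPS libraries labelled Lcn2-/- and 3.81 to 5.38 in wild type LPS libraries, which did not overlap, and 1 of the 4 was called higher with the label after LPS. Their sums were 4.39 to 7.59 in saline libraries labelled Lcn2-/- and 5.03 to 11.97 in wild type saline libraries. In wild type 1 of the 4 was lower after LPS than after saline. For comparison, neuronal markers summed to 826 to 888, 848 to 875, 845 to 860 and 815 to 887 RPKM, and oligodendrocyte markers to 855 to 918, 858 to 923, 862 to 907 and 897 to 987 RPKM, in the same order of groups. Of 8 neuronal markers 2 were higher and 1 lower after LPS with the label, and 0 were called in wild type. Of 8 oligodendrocyte markers 3 were lower after LPS in each genotype group, and 1 was higher with the label. After LPS 1 marker of each of these 2 types was higher with the label than in wild type. The part of these cell types in the levels of the 7 genes was not tested.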

How the data were processed

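The deposited table holds gene-level values that its name gives as log2 RPKM after CQN, read here as the authors' conditional quantile normalization. The headers call each column a GeneCount; since many entries are fractional or negative, they were treated as log2 values. The submitters' processing notes name the mm10 build. The sources used here do not give the aligner, counting rule, strand setting or read depth, so no counting interval is given and only the spread between libraries sets the precision. All 16 sample columns were matched to samples by title, and 0 were left unused. Of 33289 Ensembl IDs, 32695 matched GENCODE vM21.

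Genes at a log2 RPKM of -1 or more in at least 3 libraries (17349) were fitted in limma 3.58.1 (R 4.3.3) with 4 group means, empirical Bayes moderation with a trend, and Benjamini-Hochberg adjustment over all 17349 genes, at a threshold of 0.05. The 5 contrasts were LPS against saline within each genotype label, the labels after each injection, and the interaction. The fit was tested on simulated data. Ratios of 2 genes were compared with two-sided exact permutation tests (scipy 1.17.1), chosen after the values were seen. Alternatives were no filter, log2(RPKM + 0.5), quantile normalization, no trend, only the groups compared or sample weights, and leaving out each library. The genes, lists and rules were chosen with earlier results of these data known. Genes outside the 7 are named by the largest interaction in their list, by likeness of profile, or as said in the text.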

Additional observations from a re-analysis of the deposited data

Results flagged for a closer look

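As given above, the LPS effect differed between the genotype labels, Lcn2-/- minus wild type, by a limma interaction test for all 7 genes. Over all tested genes this interaction was called higher for 3.9% and lower for 4.92%. The log2 values were 2.70 for Rsad2, 2.48 for Mx2, 2.26 for Mx1, 1.53 for Ifit2, 1.52 for Ifit1, 1.39 for Ifit3b and 1.31 for Ifit3, with adjusted p between 0.00023 and 0.018.

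Single libraries stood far from the other 3 of their group in 2 of 28 groups of 4 (7 genes in 4 groups), where chance gives about 5%. Ifit3b in wild type saline replicate 1 was at a log2 RPKM of 1.497, with the others at 1.11 to 1.13, and the gap was 0.924 of the range. Mx2 in wild type saline replicate 3 was at -2.32, with the others at -1.84 to -1.81, and the gap was 0.943 of the range. Both lie in the saline group in which the labels could not be separated.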

How the results depend on the processing

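No paired analysis was possible because the titles number the libraries singly and the replicate numbers only follow accession order. For the 7 genes, all 147 values in each of the other 4 comparisons kept their direction and their call under every setting run. After saline, where none was called, quantile normalization turned the sign of Ifit1 (-0.00975), Mx1 (-0.0857) and Rsad2 (-0.0802), and leaving out a library gave -0.130 to 0.161 for Ifit1, -0.0708 to 0.127 for Ifit3, -0.175 to 0.367 for Mx1 and -0.119 to 0.138 for Rsad2. Ratios within the families changed sign for Ifit2 to Ifit3 (-0.0112 on log2(RPKM + 0.5), -0.0786 to 0.100 with a library left out), Ifit2 to Ifit3b (-0.0316 to 0.202), Ifit3 to Ifit3b (-0.000564 to 0.134) and Mx1 to Mx2 (-0.0528 to 0.213). Counts over all genes moved more. Without the filter 17808 genes were called for LPS with the Lcn2-/- label (3910 higher and 13898 lower, against 3588 and 4798), 13790 for LPS in wild type (2310 and 11480, against 1980 and 2409), 3 after saline and 905 for the interaction. Fitting only the groups compared gave 3 after saline and 4393 after LPS, and sample weights gave 3030 for the interaction. With a library left out the counts were 3 to 13 after saline, 1511 to 5169 after LPS and 740 to 2270 for the interaction. The 13 and the 5169 came without saline replicate 4 labelled Lcn2-/-, the 1511 without LPS replicate 3 of that label and the 740 without wild type LPS replicate 1. Lcn2 after LPS was called lower with the label on log2(RPKM + 0.5) (-0.93, limma adjusted p = 9.9e-06). It was also called with only the groups compared (-0.94, limma adjusted p = 6.5e-05). With a library left out it was -0.979 to -0.875 and passed in 6 of 16 fits (limma adjusted p 0.0229 to 0.0487), each without a saline library. The cause of these changes was not tested.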
